A study of Bos indicus with 5 samples.

Results

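Glycosyltransferases are the enzymes that build the sugar chains of secreted and membrane proteins, and their transcripts were examined in the ampulla, the oviduct segment in which fertilization takes place. The enzymes were taken by gene symbol, as members of the GALNT, FUT, ST3GAL, ST6GAL, ST6GALNAC, ST8SIA, B3GNT, B3GALT, B4GALT, B4GALNT, MGAT, GCNT, C1GALT1, POFUT and POMT families. This gave 82 of the 24616 genes in the table, and 69 of them had a mean normalized read count over 5 and entered the test. RNA of 5 multiparous, non-lactating Nelore cows was sequenced, with 1 library per cow. Of these, 2 cows had been treated to form a large follicle and a large corpus luteum (LF/LCL) and 3 to form a small follicle and a small corpus luteum (SF/SCL). All cows were pre-synchronized with a prostaglandin F2α analog and a GnRH agonist and then received an intravaginal progesterone device together with estradiol benzoate. Cows of LF/LCL received a further prostaglandin injection when the device was inserted, and their device came out 42 h before the ovulation-inducing GnRH, against 30 h in SF/SCL. All cows received prostaglandin at device removal and again some hours later. Tissue of the full oviduct wall, from the side of the corpus luteum, was collected on day 4. The sequenced cows were those that ranked highest in LF/LCL and lowest in SF/SCL by follicle diameter, corpus luteum area, estradiol and progesterone, so they stand for the extremes of each treatment.

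Protein glycans are made stepwise in the endoplasmic reticulum and the Golgi. Mucin-type O-glycans start when a GALNT enzyme places N-acetylgalactosamine on a serine or threonine, N-glycans are transferred as a block and then branched by MGAT enzymes, and both are extended with galactose and N-acetylglucosamine and ended with fucose or sialic acid. In the oviduct these chains decorate the secreted glycoprotein OVGP1 and the mucins of the epithelial surface, and bull sperm are known to bind fucosylated glycans of the oviduct epithelium.

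The libraries held from 13418278 to 19592174 reads assigned to genes. The first principal component of all tested genes, with 36.9% of the variance, separated the groups, with scores of -42.4 and -40.6 for LF/LCL. Within SF/SCL, replicate 3 stood apart, with a score of 59.5 against 12.1 and 11.4 for the other SF/SCL libraries. The oviduct markers were present in every library. OVGP1 ran from 117179 to 147247 normalized reads and overlapped between groups. FOXJ1, the regulator of ciliated cells, ran from 8482 to 9373 in LF/LCL and from 10647 to 12698 in SF/SCL. PAX8, a marker of secretory cells, was higher in both LF/LCL libraries, with 1280 and 1203 against 952.4, 769.4 and 715.8 and an adjusted p of 0.284 with limma and 0.0447 with DESeq2. EPCAM was also higher in both, with 16806 and 14311 against 10534, 13863 and 11202 and a limma adjusted p of 0.42. The list for secretory epithelium also held general epithelial markers, among them EPCAM, KRT8, KRT18 and KRT19. Of its 9 genes tested, 4 had an unadjusted p under 0.05. PAX8, EPCAM and CLDN4 were higher in LF/LCL, and KRT19 was higher in SF/SCL (adjusted p of 0.21 with limma and 0.000648 with DESeq2). The sum of the list, most of which was OVGP1, overlapped (159178 to 180174 against 163163 to 188390). Markers of other cell types moved with the groups. All 8 smooth muscle markers tested were higher in LF/LCL, 7 of them at an unadjusted p under 0.05, and their summed value ran from 55273 to 109610 in LF/LCL and from 13990 to 37117 in SF/SCL. All 11 ciliated markers tested were lower in LF/LCL, 8 of them at an unadjusted p under 0.05, with sums of 39481 to 52564 and 58539 to 63762. All 8 proliferation markers were higher in LF/LCL, 4 of them at an unadjusted p under 0.05, with sums of 431 to 752 and 196 to 315. Of 10 immune markers tested, 8 were higher in LF/LCL, 5 of them at an unadjusted p under 0.05, and the sums of 2347 to 3214 and 1459 to 2540 overlapped. Of 8 stromal fibroblast markers, 7 were higher in LF/LCL, 0 of them at an unadjusted p under 0.05, with a median log2 fold change of 0.65 and overlapping sums of 34711 to 83009 and 21644 to 48272. The sums also overlapped between groups for endothelium (4721 to 7383 against 5729 to 8073). Of 6 endothelium markers tested, 4 had a log2 fold change above 0, and only KDR had an unadjusted p under 0.05. KDR had 2081 and 1797 in LF/LCL against 3546, 2699 and 3560 in SF/SCL (adjusted p of 0.248 with limma and 0.00699 with DESeq2). Blood overlapped (66 to 507 against 18 to 235, with ALAS2 at 0). So did mesothelium (6899 to 7662 against 6834 to 8036), but most of that sum was WT1. UPK3B ran from 52.8 to 920.8 and LRRN4 from 8.6 to 107.1 over the libraries, with overlap. The part of these cell types in the values below was not tested, and in whole tissue fewer cells of a type and less RNA per cell cannot be told apart.

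The comparison asked which of these transcripts differ between cows of the 2 treatments. With limma, 0 of the 69 enzymes tested had an adjusted p under 0.05, and 0% of all 15815 genes had one. The smallest adjusted p among the enzymes was 0.294, for ST3GAL1. An unadjusted p under 0.05 was found for 11 enzymes (15.9%), against 11.5% of all genes. Of these 11, 5 were higher in LF/LCL (7.25% of the enzymes, against 5.64% of all genes) and 6 were higher in SF/SCL (8.70%, against 5.86%). These shares lie near those of genes in general. The groups did not overlap in 27 enzymes (39.1%, against 30.1% of all genes). In 15 LF/LCL was higher (21.7%, against 15.0%) and in 12 SF/SCL was higher (17.4%, against 15.1%). All 11 enzymes at an unadjusted p under 0.05 were among these 27. The edgeR quasi-likelihood test on recovered reads also called 0 enzymes and 0% of all genes by adjusted p. It placed 10 enzymes (14.5%) at an unadjusted p under 0.05, against 11.6% of all genes. DESeq2 called 1 enzyme, FUT1 (1.45%), against 2.89% of all genes. With 2 against 3 libraries an exact two-sided permutation test of the absolute difference cannot go below 0.1. Without SF/SCL replicate 3, 8 of the 69 enzymes had an unadjusted limma p under 0.05, against 9.45% of all genes in that fit. Without LF/LCL replicate 2 this was 7, against 9.89% of all genes, and without LF/LCL replicate 1 it was 3, against 7.84%.

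The median log2 fold change of the 69 enzymes, LF/LCL over SF/SCL on the log2(value + 1) scale, was -0.05, against 0.01 for all genes, with 32 enzymes above 0 and 37 below. The size of the differences was slightly above that of genes in general, with a median absolute log2 fold change of 0.28 against 0.21, and so was the spread within groups, with a median SD of 0.28 on the log2 scale against 0.23.

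Of the 11 enzymes, ST3GAL1 held an unadjusted limma p under 0.05 in each of the 5 fits that left out 1 library. B4GALNT3 and B3GNT3 held it in 4 fits and lost it without LF/LCL replicate 2, and GALNT3 held it in 3 and lost it without either LF/LCL library. FUT1 held it in 2 fits, without LF/LCL replicate 2 or SF/SCL replicate 2, and so did B4GALT4 and ST6GALNAC2, without LF/LCL replicate 2 or SF/SCL replicate 3. GALNT10 and C1GALT1 held it without SF/SCL replicate 1 alone, and POFUT2 and B3GNT7 without SF/SCL replicate 2 alone. The log2 fold change kept its sign for all 11 in these fits, which was fixed beforehand because their groups did not overlap. Without SF/SCL replicate 3, which stood apart from the other SF/SCL libraries, it was -0.74 for ST3GAL1, -1.56 for FUT1, 1.32 for B4GALNT3 and 1.23 for B3GNT3.

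**Figure D1:**
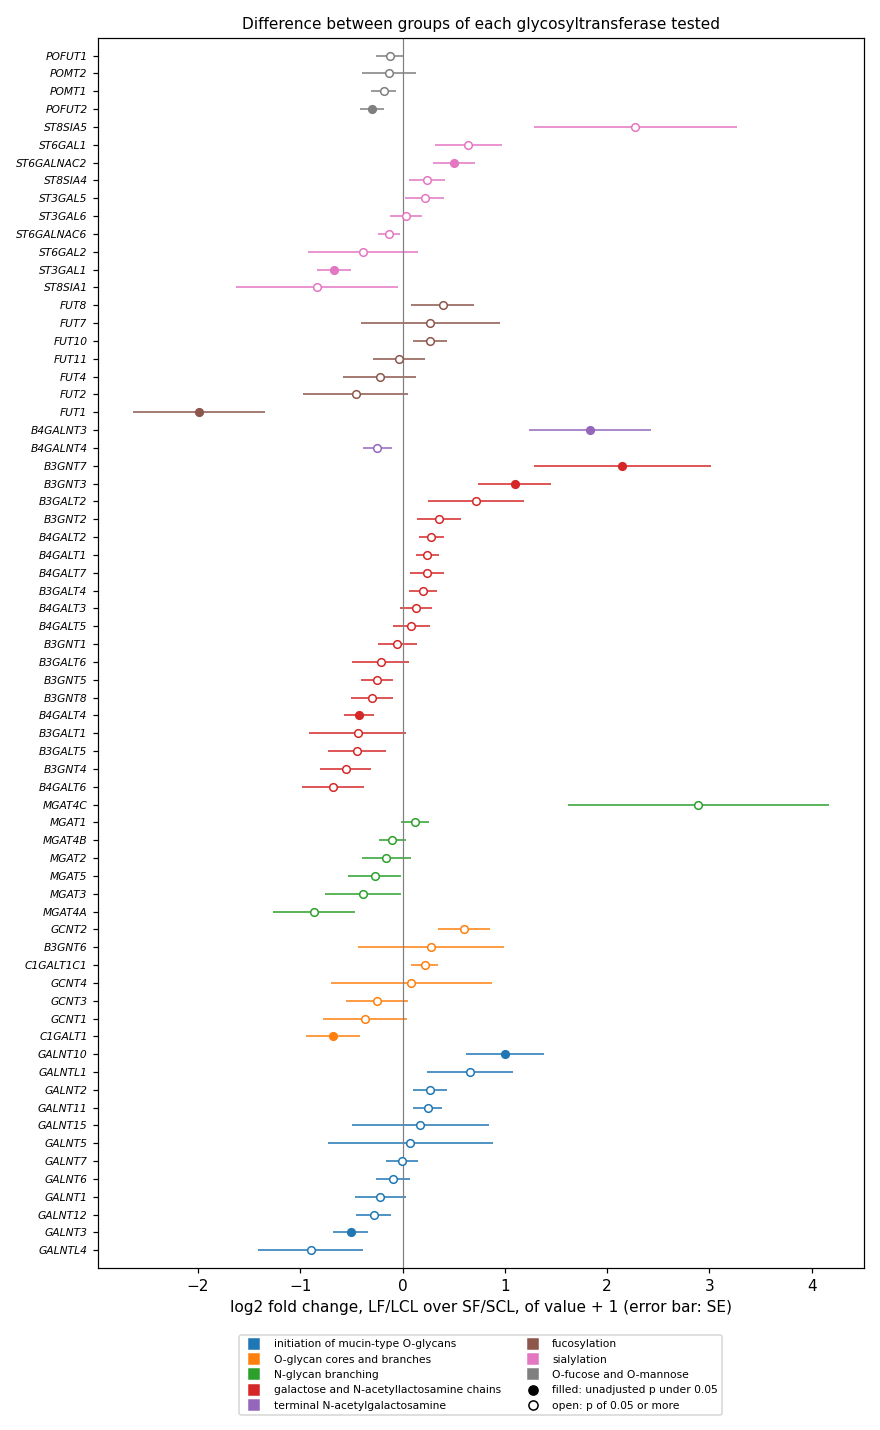
Log2 fold change of value + 1, LF/LCL over SF/SCL, for the enzymes tested except GALNT14, which had 0 reads in both LF/LCL libraries, grouped by role, with SE as error bars and filled points for an unadjusted p under 0.05. Both directions are seen in 7 of the 8 roles, and all 4 O-fucose and O-mannose enzymes lie below 0.

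Among the enzymes that start mucin-type O-glycans, 17 GALNT genes were listed and 13 were tested, 6 above 0 and 7 below. GALNT3, which glycosylates mucins and FGF23, had 1061 and 1089 normalized reads in LF/LCL against 1345, 1903 and 1392 in SF/SCL. Every SF/SCL library was above both LF/LCL libraries, and the LF/LCL libraries were close together. The log2 fold change was -0.51 ± 0.17 (SE), with a limma adjusted p of 0.363. GALNT10 went the other way, with 945.3 and 889.5 in LF/LCL against 782.9, 375.4 and 325.2 in SF/SCL. Here SF/SCL replicate 1 lay near the LF/LCL libraries and the other SF/SCL libraries lay far below. Its log2 fold change was 1.00 ± 0.38 (SE), with a limma adjusted p of 0.414. GALNT6, named because it had the most reads of this family, had 1644 and 2033 in LF/LCL against 2032, 2238 and 1632 in SF/SCL, and its groups overlapped. The same was seen for GALNT12, GALNT2 and GALNT7, whose group means were 1436 and 1754, 1569 and 1305, and 996.0 and 991.0 in LF/LCL and SF/SCL, and for GALNT1, GALNT5, GALNT15, GALNTL1 and GALNTL4. GALNT11 had 1375 and 1517 in LF/LCL against 1304, 1337 and 1039 in SF/SCL, without overlap but with a limma adjusted p of 0.57. GALNT14 had 37.3 normalized reads in SF/SCL replicate 2, 4.3 in SF/SCL replicate 3 and 0 in the other 3 libraries. The summed value of the family was 9997 ± 464 (SD, n = 2) in LF/LCL against 10028 ± 893 (SD, n = 3) in SF/SCL, a difference smaller than the spread between libraries.

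The next step adds galactose to make the core 1 structure, a reaction catalyzed by C1GALT1 with the help of its chaperone C1GALT1C1 (Cosmc). C1GALT1 had 99.7 and 98.7 normalized reads in LF/LCL against 123.7, 171.0 and 192.1 in SF/SCL. The LF/LCL libraries were nearly equal and all SF/SCL libraries were above them. The log2 fold change was -0.68 ± 0.26 (SE), with a limma adjusted p of 0.418. C1GALT1C1 overlapped between groups, with 853.8 and 1018 in LF/LCL against 807.8, 854.9 and 750.2 in SF/SCL and a log2 fold change of 0.22 ± 0.13 (SE). The difference between enzyme and chaperone was not tested. Among the branching enzymes, GCNT3, which makes core 2 and core 4 in mucus-forming tissue, had 1141 and 1549 in LF/LCL against 1542, 2259 and 1139 in SF/SCL, with overlap. GCNT2, which makes the branches of the I antigen, had 107.9 and 103.6 in LF/LCL against 68.6, 66.8 and 73.0 in SF/SCL. Its groups were well apart and tight, with a log2 fold change of 0.60 ± 0.25 (SE) and a limma adjusted p of 0.447. GCNT1, GCNT4 and B3GNT6 overlapped between groups, and the reads of GCNT7 were too few to test, with at most 3.2 normalized reads in a library.

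Sialic acid capping of core 1 is the reaction of ST3GAL1, and this enzyme had the smallest p of the 69. It had 358.9 and 404.6 normalized reads in LF/LCL against 567.7, 718.1 and 547.3 in SF/SCL. The highest LF/LCL library was well below the lowest SF/SCL library. The means were 381.7 ± 32.3 (SD, n = 2) and 611.0 ± 93.3 (SD, n = 3), a log2 fold change of -0.67 ± 0.17 (SE). Its adjusted p was 0.294 with limma, 0.304 with the edgeR quasi-likelihood test and 0.0527 with DESeq2. Its unadjusted p was also under 0.05 in all 11 alternatives that kept every library. ST6GALNAC2, which adds sialic acid to the inner N-acetylgalactosamine of O-glycans, had the opposite order, with 845.6 and 630.1 in LF/LCL against 422.1, 541.7 and 597.8 in SF/SCL. The gap between the lower LF/LCL library and the higher SF/SCL library was small, and the log2 fold change was 0.50 ± 0.21 (SE) with a limma adjusted p of 0.43. Without LF/LCL replicate 1 the log2 fold change was 0.29. Of the enzymes that act on N-glycan ends, ST6GAL1 had 137.2 and 119.1 in LF/LCL against 114.4, 63.0 and 75.1 in SF/SCL, with LF/LCL higher by a narrow margin and a limma adjusted p of 0.516. ST3GAL6, ST3GAL5 (which makes the ganglioside GM3), ST6GALNAC6, ST6GAL2 and ST8SIA1 overlapped between groups. ST8SIA4, a polysialyltransferase that had the most reads of the sialyltransferases, had 2293 in each LF/LCL library and 1890, 2412 and 1610 in SF/SCL. Summed over the 15 sialyltransferases, the value was 7129 ± 107 (SD, n = 2) in LF/LCL against 6683 ± 709 (SD, n = 3) in SF/SCL, a difference smaller than the spread of SF/SCL.

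**Figure D2:**
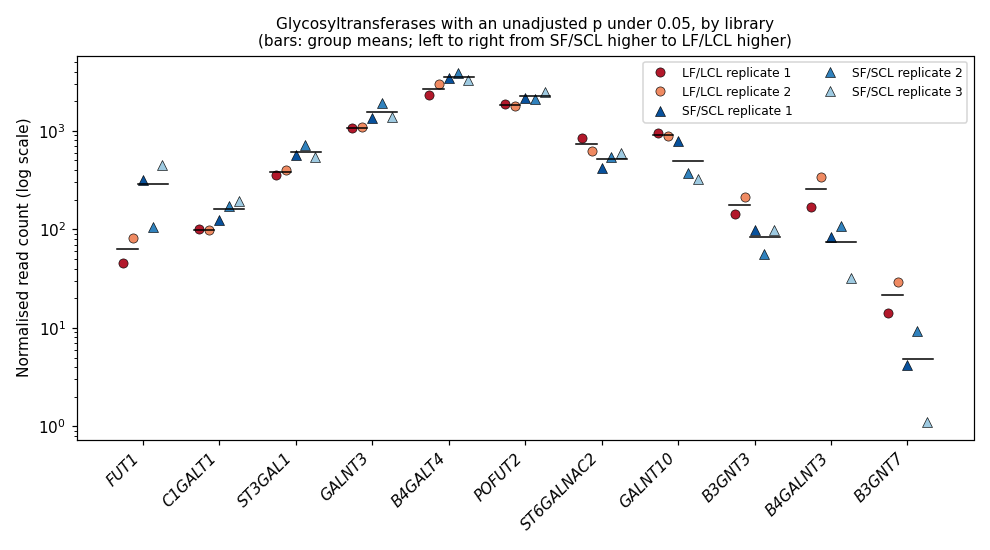
Normalized read count (log scale) in each of the 5 libraries for the 11 enzymes with an unadjusted p under 0.05, with bars at the group means. In each of the 11 the circles (LF/LCL) and triangles (SF/SCL) do not overlap, from FUT1 with 45.7 and 81.3 against 105.7 to 446.4 at the left to B3GNT7 with 14.1 and 29.0 against 1.1 to 9.3 at the right.

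Fucose at the outer end of chains is added by FUT enzymes, and FUT1, which makes the H antigen, showed the largest difference in favor of SF/SCL among the 11. FUT1 had 45.7 and 81.3 normalized reads in LF/LCL against 314.0, 105.7 and 446.4 in SF/SCL. There was no overlap, but SF/SCL replicate 2 was far nearer to LF/LCL than to the other SF/SCL libraries. The mean was 63.5 ± 25.2 (SD, n = 2) in LF/LCL against 289 ± 172 (SD, n = 3) in SF/SCL, 4.54 times as high. The log2 fold change was -1.99 ± 0.64 (SE), with an adjusted p of 0.36 with limma, 0.35 with the edgeR quasi-likelihood test and 0.0189 with DESeq2. The DESeq2 call rested on single libraries, since its adjusted p was 0.319 without LF/LCL replicate 1, 0.0888 when SF/SCL replicate 1 and 0.169 when SF/SCL replicate 3 was left out, but 0.0259 without LF/LCL replicate 2 and 7.41e-07 without SF/SCL replicate 2. No other FUT gene had an unadjusted p under 0.05. FUT2, the secretor enzyme, which makes the same antigen as FUT1, had 9.4 and 17.4 in LF/LCL against 20.8, 18.7 and 15.0 in SF/SCL. FUT8, which adds the core fucose of N-glycans, had 482.0 and 237.1 in LF/LCL against 230.8, 272.0 and 271.5 in SF/SCL, so that LF/LCL replicate 1 alone stood above the rest. FUT10, with the most reads of the family, had 458.6 and 538.2 against 471.0, 408.0 and 364.9. FUT4, which makes Lewis X type structures, FUT7 and FUT11 overlapped, and FUT9 had 0 reads in every library. The sum over the FUT genes was 1164 ± 75.8 (SD, n = 2) in LF/LCL against 1228 ± 203 (SD, n = 3) in SF/SCL.

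Fucose and mannose are also attached directly to proteins. POFUT2, which acts on thrombospondin type 1 repeats, had 1864 and 1768 normalized reads in LF/LCL against 2131, 2098 and 2501 in SF/SCL. All SF/SCL libraries were above LF/LCL, by a modest margin, with a log2 fold change of -0.30 ± 0.12 (SE) and a limma adjusted p of 0.418. POMT1, which with POMT2 starts the O-mannose chains of dystroglycan, had 775.2 and 701.7 in LF/LCL against 779.8, 823.8 and 919.7 in SF/SCL. Its groups were separated by a few normalized reads only. POFUT1, which fucosylates EGF repeats such as those of Notch, and POMT2 overlapped. All 4 genes had a negative log2 fold change, and their sum was 3372 ± 62.6 (SD, n = 2) in LF/LCL against 3981 ± 224 (SD, n = 3) in SF/SCL. This was the only role whose sum did not overlap between groups, with 3416 and 3328 against 3760, 3978 and 4207.

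Chains of galactose and N-acetylglucosamine are built by members of the B4GALT, B3GALT and B3GNT families. The role was set by gene symbol, and not every gene in it builds such chains. All 19 genes in this role were tested, 10 above 0 and 9 below. B4GALT4, which prefers sulfated N-acetylglucosamine as acceptor, had 2299 and 3005 normalized reads in LF/LCL against 3476, 3858 and 3297 in SF/SCL. SF/SCL was higher throughout, with LF/LCL replicate 1 the lowest, and the log2 fold change was -0.43 ± 0.15 (SE) with a limma adjusted p of 0.373. It was -0.24 without LF/LCL replicate 1. B4GALT1, the general galactosyltransferase of N-glycans, had 3600 and 3529 in LF/LCL against 2727, 3100 and 3243 in SF/SCL. Its order was the reverse of that of B4GALT4, with no overlap, a log2 fold change of 0.24 ± 0.11 (SE) and a limma adjusted p of 0.477. B4GALT2 resembled B4GALT1, with 864.3 and 751.1 against 624.9, 684.7 and 681.5. B4GALT6, which makes lactosylceramide, was higher in SF/SCL, with 106.7 and 100.7 against 233.9, 129.8 and 152.4 and a limma adjusted p of 0.464.

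Among the enzymes that add N-acetylglucosamine, B3GNT3, which extends core 1, had 141.9 and 214.9 normalized reads in LF/LCL against 97.7, 56.0 and 97.7 in SF/SCL. The mean was 2.13 times as high in LF/LCL, and the log2 fold change was 1.10 ± 0.36 (SE) with a limma adjusted p of 0.359. It was 0.80 without LF/LCL replicate 2, the highest library. B3GNT7, which takes part in keratan sulfate synthesis, had 14.1 and 29.0 in LF/LCL against 4.2, 9.3 and 1.1 in SF/SCL. These were few reads, from 1 to 30 in a library, and the log2 fold change was 2.15 ± 0.87 (SE) with a limma adjusted p of 0.427. B3GNT2, the main enzyme of poly-N-acetyllactosamine, had 589.9 and 511.1 in LF/LCL against 501.1, 328.7 and 476.5 in SF/SCL, with LF/LCL narrowly higher. B3GNT4 had higher means in SF/SCL (457 ± 105, SD, n = 3) than in LF/LCL (308 ± 64.1, SD, n = 2), and its groups overlapped. B3GNT5, which starts the lacto-series glycolipids, had 286.2 and 299.1 against 372.2, 364.5 and 311.2, without overlap. Of the other genes of this role, B3GALT4 and B4GALT7 were higher in both LF/LCL libraries and B3GALT6 in all SF/SCL libraries, with log2 fold changes of 0.20, 0.24 and -0.22, and B3GALT1, B3GALT2, B3GALT5, B3GNT1, B3GNT8, B4GALT3 and B4GALT5 overlapped. The sum over the role was 11626 ± 746 (SD, n = 2) in LF/LCL against 11907 ± 319 (SD, n = 3) in SF/SCL.

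B4GALNT3 and B4GALNT4 place N-acetylgalactosamine on N-acetylglucosamine and so make the LacdiNAc end of glycans. B4GALNT3 had 167.7 and 342.6 normalized reads in LF/LCL against 84.2, 108.0 and 32.2 in SF/SCL. The mean was 3.41 times as high in LF/LCL, with LF/LCL replicate 2 standing above all others. The log2 fold change was 1.83 ± 0.59 (SE), with a limma adjusted p of 0.358 and a DESeq2 adjusted p of 0.0674, and it was 1.32 without LF/LCL replicate 2. B4GALNT4, which had more reads, had the opposite order, with 870.2 and 1138 in LF/LCL against 1144, 1150 and 1257 in SF/SCL. Its groups were separated by a few normalized reads only, with a log2 fold change of -0.25 ± 0.14 (SE). It was -0.06 without LF/LCL replicate 1 and -0.44 without LF/LCL replicate 2. The difference between these genes was not tested. B4GALNT2 had 0 reads in every library.

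The N-glycan branching enzymes held none of the 11 genes. MGAT1, which starts the branching, had 1749 and 1803 normalized reads in LF/LCL against 1644, 1416 and 1868 in SF/SCL. MGAT4B, with the most reads of the family, had 2074 and 1831 in LF/LCL against 1979, 2397 and 1923 in SF/SCL. MGAT2, MGAT3 (which adds the bisecting residue) and MGAT5 overlapped in the same way. MGAT4A had 19.9 and 30.0 in LF/LCL against 57.2, 40.4 and 40.8 in SF/SCL, without overlap and with a limma adjusted p of 0.477. The summed value of the family was 5425 ± 77.3 (SD, n = 2) in LF/LCL against 5421 ± 197 (SD, n = 3) in SF/SCL.

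MGAT4C, ST8SIA5 and GALNT10 had a split within SF/SCL and were set side by side after their values were seen. MGAT4C had 358.9 and 412.3 normalized reads in LF/LCL, 330.6 in SF/SCL replicate 1, and 15.5 and 24.7 in SF/SCL replicates 2 and 3. ST8SIA5, a sialyltransferase of gangliosides, had 217.0 and 235.2 in LF/LCL, 180.9 in SF/SCL replicate 1, and 34.2 and 15.0 in SF/SCL replicates 2 and 3. In both, as in GALNT10, SF/SCL replicate 1 lay just under the LF/LCL libraries and the other SF/SCL libraries lay far lower. The log2 fold changes were 2.89 ± 1.28 (SE) for MGAT4C and 2.28 ± 0.99 (SE) for ST8SIA5, with limma adjusted p of 0.467 and 0.464. Without SF/SCL replicate 1, DESeq2 called these 3 enzymes, among 404 of 15841 genes called, and no longer FUT1. As the 3 were set together because that library differed from the other SF/SCL libraries, their calls without it follow from the choice and are no support.

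**Figure D3:**
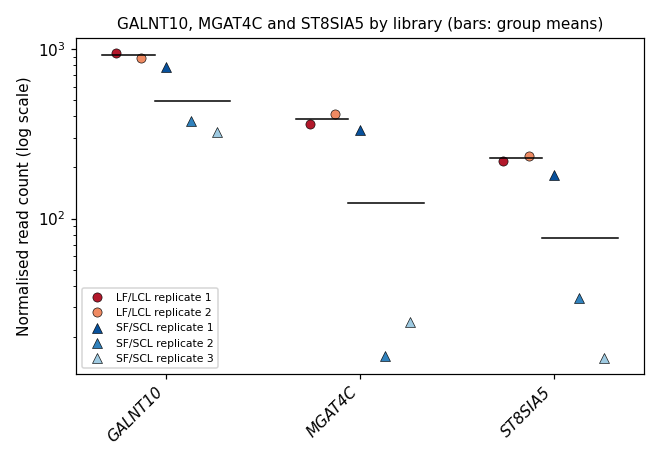
Normalized read count (log scale) of GALNT10, MGAT4C and ST8SIA5 in each library, with bars at the group means. SF/SCL replicate 1, with 782.9, 330.6 and 180.9, lies near the LF/LCL libraries, and SF/SCL replicates 2 and 3 lie between 15.0 and 375.4.

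The 13 enzymes that were not tested comprised 6 with 0 reads in every library (B4GALNT2, FUT9, GALNT8, GALNTL5, GALNTL6 and ST8SIA3) and 7 with few reads (GALNT13, GCNT7, MGAT5B, ST6GALNAC1, ST6GALNAC5, ST8SIA2 and ST8SIA6). A count of 0 allows up to 3 reads, which is 2.33 to 3.52 normalized reads depending on the library. The highest value among the 7 was 12.9, for ST8SIA2 in LF/LCL replicate 1, against 3.9 in LF/LCL replicate 2 and 0 to 3.1 in SF/SCL.

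Other genes that supply or edit glycans were read from 7 lists with 96 genes tested. An unadjusted p under 0.05 was found for 10 of them (10.4%, against 11.5% of all genes), 5 higher in each group, and 0 had an adjusted p under 0.05 with limma. Of the genes that make nucleotide sugars 0 of 23 had an unadjusted p under 0.05, and of those that trim N-glycans 0 of 13. Of 9 transporter entries 3 had one. SLC35A1, which carries CMP-sialic acid into the Golgi, had 1269 and 997.9 normalized reads in LF/LCL against 673.7, 722.8 and 766.3 in SF/SCL. LF/LCL was higher throughout, in the same direction as ST6GALNAC2 and the opposite one to ST3GAL1, with a log2 fold change of 0.64 ± 0.14 (SE), a limma adjusted p of 0.248 and a DESeq2 adjusted p of 0.0182. SLC35C1, the GDP-fucose transporter, had 159.5 and 188.7 in LF/LCL against 135.2, 112.7 and 98.7 in SF/SCL. Its order was opposite to that of FUT1. SLC35D2 (ENSBTAG00000019939) had 35.2 and 38.7 in LF/LCL against 81.1, 54.4 and 75.1 in SF/SCL, and a second entry of that symbol overlapped between groups.

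Of 4 sialidase and fucosidase genes tested, FUCA1, the lysosomal fucosidase, had 2968 and 4338 normalized reads in LF/LCL against 1857, 2133 and 1540 in SF/SCL. The mean was 1.98 times as high in LF/LCL, with a log2 fold change of 0.97 ± 0.21 (SE), a limma adjusted p of 0.248 and a DESeq2 adjusted p of 0.00432. NEU1, NEU3 and FUCA2 had log2 fold changes of 0.26, 0.27 and 0.32, and NEU2 and NEU4 had 0 reads. Among 18 other O-glycan genes tested, LFNG, which lengthens the O-fucose of Notch, had 1166 and 1126 in LF/LCL against 1525, 1608 and 1843 in SF/SCL. It was higher in every SF/SCL library, with a log2 fold change of -0.53 ± 0.12 (SE), a limma adjusted p of 0.248 and a DESeq2 adjusted p of 0.0237. POFUT1, which places the O-fucose of Notch, overlapped between groups. CHST1, a sulfotransferase of keratan sulfate, had 411.6 and 227.5 in LF/LCL against 596.8, 474.8 and 620.3 in SF/SCL. In the pathway that assembles the N-glycan precursor, 2 of 19 genes had an unadjusted p under 0.05, ALG12 (588.2 ± 48.9, SD, n = 2 in LF/LCL against 815.5 ± 44.0, SD, n = 3 in SF/SCL) and, in the other direction, ALG6 (248.9 ± 17.9 and 166.1 ± 32.9). In the oligosaccharyltransferase complex 2 of 10 had one, KRTCAP2 (845.8 ± 7.97 and 1040 ± 41.3) and, in the other direction, the catalytic subunit STT3B (2808 ± 181 and 2351 ± 113). STT3A, the alternative catalytic subunit, had the reverse order of STT3B, with 3701 and 3704 in LF/LCL against 3946, 4059 and 5160 in SF/SCL. Its limma adjusted p was 0.583.

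**Figure D4:**
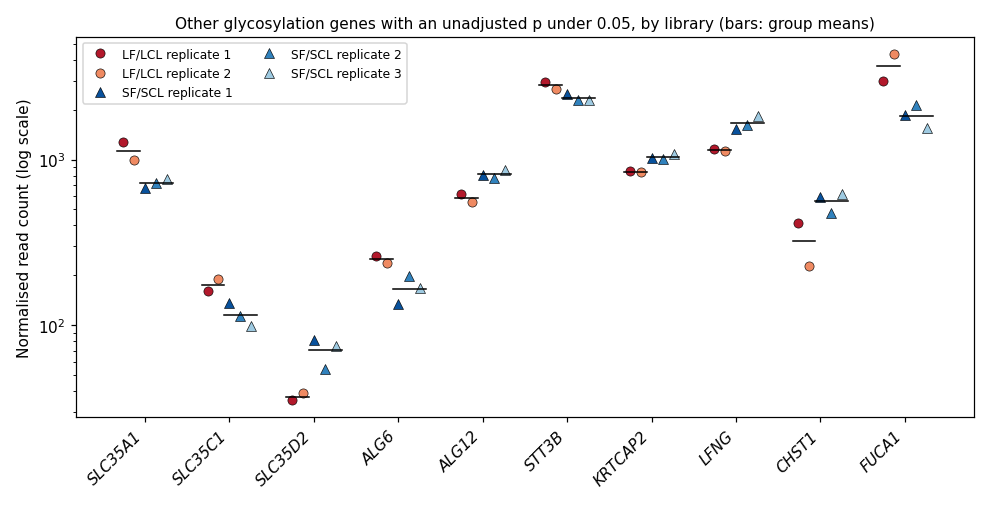
Normalized read count (log scale) in each library for the 10 other glycosylation genes with an unadjusted p under 0.05, with bars at the group means. LF/LCL (circles) is higher for SLC35A1, SLC35C1, ALG6, STT3B and FUCA1, and SF/SCL (triangles) for SLC35D2, ALG12, KRTCAP2, LFNG and CHST1.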

How the data were processed

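The authors made polyA libraries from ampulla RNA, filtered the read pairs with seqyClean, aligned them with TopHat 2.0.8 and Bowtie2 2.1.0 to the masked UMD cattle assembly, counted uniquely mapped reads per gene with HTSeq 0.5.4p2 and divided them by DESeq 1.12.1 size factors. The deposited values are this normalized signal. It is not corrected for transcript length, so a gene with more reads than another need not have more transcripts. Sums over genes weigh each gene by its reads. Whether strand was used in counting is not given in the sources used here, and overlapping genes or near-identical copies are uncertain. A discarded LF/LCL library was not analysed here.

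Whole reads were recovered for 100% of nonzero values in each library, within 0.05 of a read. The main test was limma 3.58.1 (lmFit, eBayes with trend and robust) on log2(value + 1) for 15815 genes with a mean value over 5, two-sided, without covariates, with Benjamini-Hochberg adjustment over all genes and a threshold of 0.05. edgeR 4.0.16 and DESeq2 1.42.0 were run on the recovered reads. The limma, edgeR, DESeq2 and limma-voom fits were run on simulated data in which every gene had the same dispersion. The simulation therefore does not show how they do for genes with a wide spread, such as FUT1. P-values set the difference between groups against the spread between cows, which each test estimated with help from the other genes. The cows were the extremes of each treatment, so their spread need not be that of all treated cows. No sequences are given, as none were analysed here.

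The enzymes and lists were chosen with earlier results of these data known. Named genes were enzymes with an unadjusted limma p under 0.05, DESeq2 or edgeR calls, the enzyme with the most reads of each role, up to 3 genes per pathway list at an unadjusted p under 0.05, and the markers OVGP1, PAX8, FOXJ1 and EPCAM. Other enzymes are given as values or counts, and some also with a log2 fold change or an adjusted p. These were not named by this rule. Among them were GCNT2, GALNT11, C1GALT1C1, ST6GAL1, B4GALT6, MGAT4A, MGAT4C and ST8SIA5. The same holds for KRT19, KDR and STT3A. Alternatives covered scaling, filters, pseudocounts, tests and leaving out each library, and the DESeq2 fits without 1 library were added after seeing the data.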

Additional observations from a re-analysis of the deposited data

How the results depend on the processing

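The count of 0 enzymes with an adjusted p under 0.05 was also 0 under every alternative but DESeq2, which called 1. The DESeq2 calls ran from 0 to 3 when a library was left out, while 269 to 404 of all genes were called. The count of 11 enzymes at an unadjusted p under 0.05 ran from 3 (without LF/LCL replicate 1) to 11 when a library was left out, where 7.84% to 10.5% of all genes had such a p, and from 8 to 13 otherwise, with 10.5% to 12.7% of all genes. The 5 higher in LF/LCL became 3 with a mean over 20, where fewer genes were tested, and 8 with limma-voom, where the cause was not tested, and ran from 2 to 6 without 1 library. The 6 higher in SF/SCL ran from 1 to 7 without 1 library and from 4 to 8 otherwise. The 27 enzymes without overlap became 33 to 45 when a library was left out, as fewer libraries must be apart. The share of all genes without overlap was not counted in those fits. Whether 33 to 45 lies above genes in general is therefore not known. All 11 kept their direction in every fit that tested them. In the fits without 1 library this was fixed beforehand, as the groups of all 11 did not overlap. Without an LF/LCL library, the lone one was assumed to vary like SF/SCL. The log2 ratio of sums ran from -0.10 to 0.03 for galactose chains and from -0.28 to 0.24 for the B4GALNT genes. Of the genes named for their reads, GALNT6 (-0.09) turned to 0.059 without LF/LCL replicate 1 and 0.006 without SF/SCL replicate 2, within -0.246 to 0.059, and GCNT3 (-0.25) to 0.005 without SF/SCL replicate 2, within -0.489 to 0.005. B4GALNT4 (-0.25) came to an unadjusted limma model p of 0.0254 without LF/LCL replicate 2 (-0.44), and ST8SIA4 (0.24) to 0.026 without SF/SCL replicate 2 (0.39). The median of the enzymes ran from -0.08 to 0.01. Other settings gave medians from -0.10 to -0.04. Depth limits B3GNT7 and the enzymes not tested.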
